A study of Homo sapiens with 6 samples.

Results

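Collagen chain genes encode the subunits of the collagens, the triple-helical proteins of the extracellular matrix. The members were all symbols in the deposited count table made of COL, a type number, A and a chain number, without COL17A1. This gave 43 genes of the 60591 in the table, grouped as 11 fibrillar, 9 network-forming, 10 FACIT (fibril-associated) and 13 other collagens. The rule used no measured value. A count in at least 1 library was found for 40 of the 43, and 27 had enough counts to be tested.

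All libraries came from 1 established human line, KYSE150, grown from a squamous carcinoma of the oesophagus. The 3 TPA libraries were from cells starved of serum overnight and then given TPA, a phorbol ester that activates protein kinase C, at 10 ng/ml for 24 h. The 3 DMSO libraries were the solvent controls, for which the labels give no dose or time of their own. RNA sequencing gave raw read counts per gene, with 28915283 to 33965547 counts in the TPA libraries and 27702329 to 30207144 in the DMSO libraries. Nothing in the labels states that each library had a culture of its own, so the p-values speak only of the spread between these samples, and that spread may be technical. In bulk RNA, fewer cells that make a transcript and less of it per cell cannot be told apart.

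Each collagen molecule is a trimer of chains that share a glycine-rich repeat, and many types need chains from more than 1 gene. Fibrillar collagens form the banded fibrils of connective tissue, type IV forms the sheet of the basement membrane, type VII anchors that membrane to the tissue beneath, and FACIT collagens sit on the surface of fibrils. Squamous epithelial cells rest on a basement membrane and are known to make type IV and type VII collagen themselves, while most fibrillar collagen in tissue comes from fibroblasts.

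The libraries numbered 1 stood apart from those numbered 2 and 3, TPA 1 most of all. Across the genes tested, log2 CPM (a gene's reads scaled to the library total) gave r = 0.974 between TPA 1 and DMSO 1. TPA 1 was less like the rest of its own group, at r = 0.927 and 0.936, whereas DMSO 1 was slightly closer to DMSO 2 (r = 0.978) and DMSO 3 (r = 0.977) than to TPA 1. The libraries numbered 2 and 3 had r = 0.992 within TPA and 0.993 within DMSO. Results are therefore given from a comparison of 3 with 3 libraries and from one with the library number as a replicate block. Values without both libraries numbered 1 stand beside the calls of these comparisons. The 8 squamous markers all had counts, summing to 1122 to 2125 CPM in TPA and 1506 to 3078 CPM in DMSO. That sum hides members that went opposite ways. KRT5, KRT17, TP63 and DSG3 had lower means in TPA, and KRT6A, KRT14, EPCAM and CDH1 had higher means. Mean CPM in TPA against DMSO was 355 against 1313 for KRT5, 15.1 against 1.16 for KRT6A and 1036 against 661 for CDH1. The 8 fibroblast markers summed to 0.571 to 2.43 CPM in TPA and 2.50 to 3.32 CPM in DMSO, most of it THY1, with DCN, POSTN and PRRX1 at 0 in every library. The 4 endothelial markers summed to 0.977 to 2.25 CPM in TPA and 2.19 to 2.92 CPM in DMSO, with KDR at 0.

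The 6 type IV genes lie as 3 pairs, and in each pair the genes start close together and are read away from each other. COL4A1 (chr13:110148963-110307233, minus strand) and COL4A2 (chr13:110305812-110513209, plus strand) start 127 bases apart, and their annotated gene bodies overlap over 1422 bases. COL4A3 (chr2:227164565-227314792, plus) and COL4A4 (chr2:227002711-227164453, minus) start 419 bases apart, and COL4A5 (chrX:108439844-108697545, plus) and COL4A6 (chrX:108155607-108439497, minus) 380 bases apart. Gene coordinates are from GENCODE 29 on GRCh38, and distances are between the nearest RefSeq starts on GRCh38.p14. The RefSeq promoter windows, 300 bases ending 50 bases into the gene, are shown for 1 gene of each pair. They were chosen because the windows of each pair overlap and all 6 type IV genes had lower means in TPA. Whether the shared bases bear on the levels was not tested. Capitals mark the bases that the window shares with that of the partner gene, 226, 82 and 121 of them for the pairs of COL4A1, COL4A3 and COL4A5.
COL4A1 (chr13:110307108-110307407, minus strand): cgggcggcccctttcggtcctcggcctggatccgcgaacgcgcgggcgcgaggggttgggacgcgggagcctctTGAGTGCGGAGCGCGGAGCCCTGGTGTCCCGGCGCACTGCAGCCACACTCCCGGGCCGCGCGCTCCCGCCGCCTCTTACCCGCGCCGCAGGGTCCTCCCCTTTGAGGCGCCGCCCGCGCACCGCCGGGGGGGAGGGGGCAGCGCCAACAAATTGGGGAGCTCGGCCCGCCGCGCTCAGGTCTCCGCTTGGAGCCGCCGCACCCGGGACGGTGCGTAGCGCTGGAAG
COL4A3 (chr2:227164374-227164673, plus strand): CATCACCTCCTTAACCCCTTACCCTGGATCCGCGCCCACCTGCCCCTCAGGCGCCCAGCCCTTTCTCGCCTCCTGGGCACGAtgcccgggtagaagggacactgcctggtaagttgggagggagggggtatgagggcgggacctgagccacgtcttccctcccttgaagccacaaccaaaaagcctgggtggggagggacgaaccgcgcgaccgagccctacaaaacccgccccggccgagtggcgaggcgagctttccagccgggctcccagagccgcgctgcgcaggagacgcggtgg
COL4A5 (chrX:108439588-108439887, plus strand): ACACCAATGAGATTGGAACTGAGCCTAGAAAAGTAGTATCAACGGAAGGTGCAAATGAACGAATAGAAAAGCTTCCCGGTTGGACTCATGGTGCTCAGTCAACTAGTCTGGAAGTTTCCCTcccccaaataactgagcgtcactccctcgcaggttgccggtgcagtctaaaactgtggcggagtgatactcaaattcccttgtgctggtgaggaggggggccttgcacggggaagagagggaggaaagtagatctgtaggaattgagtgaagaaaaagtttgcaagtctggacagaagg

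Members were searched on both strands for the AP-1 element TGANTCA, the GC box GGGCGG and CCAAT. AP-1 is the factor that binds this element, which was named for its response to TPA. Of 43 windows of 31 members with an entry in the RefSeq table, 1 held the AP-1 element, a window of COL10A1 with 2 matches, against 7.71% of 35116 windows of all genes. The GC box was in 24 member windows, against 45% of all windows, and CCAAT in 13, against 34.6%. The COL4A1 window held 2 GC boxes and 1 CCAAT, the COL4A3 window 2 GC boxes, and the COL4A5 window 2 CCAAT. These are matches of letters within short windows and say nothing about binding. COL14A1, COL1A1, COL1A2, COL20A1, COL22A1, COL2A1, COL3A1, COL5A2, COL6A1, COL6A5, COL8A1 and COL9A3 had no entry.

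The comparison of TPA with DMSO asked which collagen transcripts differ after phorbol ester treatment. All 6 type IV genes, the anchoring fibril gene COL7A1 and the type VI genes COL6A1 and COL6A6 had lower means in TPA, and COL13A1, COL9A3 and COL27A1 had higher means. With 3 against 3 libraries, 0 of the 27 tested members passed in either direction (edgeR's quasi-likelihood test, Benjamini-Hochberg adjustment over 21825 genes, threshold 0.05), where 0.394% of all genes were called lower and 0.861% higher. At an unadjusted p under 0.05 there were 4 lower (COL4A5, COL8A1, COL6A6 and COL6A1; 10.7% of all genes) and 2 higher (COL13A1 and COL9A3; 11.3% of all genes). DESeq2 called 2 lower, COL6A6 and COL8A1 (4.19% of all genes), and 2 higher, COL13A1 and COL9A3 (7.8% of all genes). limma-voom called 0 lower and 0 higher (0.596% and 1.13% of all genes). Leaving out TPA 1 alone gave 6 lower and 5 higher, where 27.8% and 24.6% of all genes were called, and leaving out any other single library gave 0 and 0.

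With the replicate block, 7 members were called lower (6.52% of all genes) and 1 higher (4.58% of all genes). Those called lower were COL4A1, COL4A3, COL4A5, COL8A1, COL6A1, COL6A6 and COL7A1, and the one called higher was COL13A1. Part of the spread in that fit is the difference between libraries numbered 2 and 3, which were close, so its p-values may be too small. Without both libraries numbered 1, 13 of 28 members were called lower and 8 higher, where 33.3% and 32.2% of all genes were. The 28th member was COL15A1, which passed the count filter there but not with 3 against 3 libraries (log2 1.33 ± 0.53, adjusted p = 0.0384, edgeR). It had 13 and 11 counts in TPA 2 and 3, against 6 and 5 in DMSO 2 and 3. That fit rests wholly on the close libraries numbered 2 and 3, so its p-values may be too small as well. The median log2 fold change was -0.47 over the 27 tested members and -0.11 over all genes tested, and 17 of the 27 (63.0%) were below 0, as were 56% of all genes tested. Of the 27 members, 13 were lower in the TPA library of every number (29.6% of all genes) and 5 were higher in every one (22.7% of all genes). In 4 members every TPA library was below every DMSO library (15.2% of all genes), and in 3 every TPA library was above (14.3% of all genes). COL8A1, COL4A4 and COL23A1 had under 10 counts in at least 1 library.

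**Figure D1:**
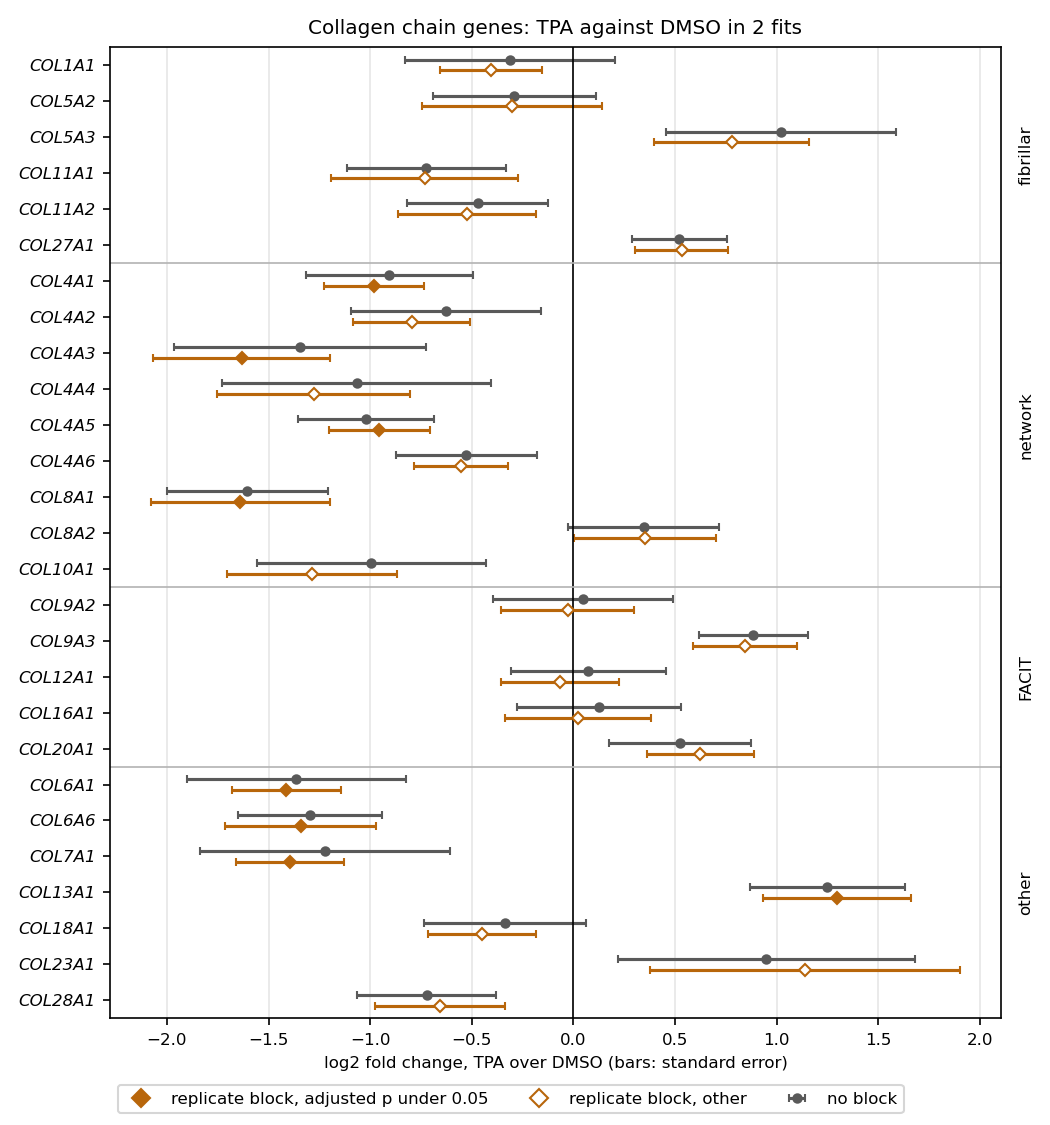
Log2 fold change, TPA over DMSO, of the 27 tested collagen genes by class, with standard errors, from the fit of 3 with 3 libraries (circles) and with the replicate block (diamonds, filled where the adjusted p is under 0.05). The 6 type IV genes all lie left of 0 in both fits, and 8 diamonds are filled, 7 left of 0 and 1 right of it.

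The chains of type IV collagen form the sheet of the basement membrane, and those of COL4A1 and COL4A2 assemble together in nearly every basement membrane of the body. COL4A1 had 20.2, 53.1 and 50.1 CPM in TPA 1, 2 and 3, against 51.5, 86.1 and 93.5 CPM in DMSO 1, 2 and 3. COL4A2 had 38.0, 141 and 121 CPM in TPA 1, 2 and 3, against 111, 165 and 187 CPM in DMSO 1, 2 and 3. For both genes TPA 1 was the lowest library and DMSO 1 the lowest of its group, so the groups overlapped although each TPA library was below the DMSO library of its number. The log2 fold change of COL4A1 was -0.90 ± 0.41 (SE; adjusted p = 0.248, edgeR) and -0.98 ± 0.25 with the block (adjusted p = 0.0312). It was -0.47 without TPA 1 alone and -0.65 without both libraries numbered 1. That of COL4A2 was -0.63 ± 0.47 (adjusted p = 0.464, edgeR) and -0.80 ± 0.29 with the block (adjusted p = 0.0886). For COL4A2 it was -0.13 without TPA 1 alone and -0.27 without both libraries numbered 1.

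COL4A3 and COL4A4 encode chains known from the basement membranes of the kidney glomerulus, and mutations in them cause Alport syndrome. COL4A3 had 2.28, 0.403 and 0.652 CPM in TPA 1, 2 and 3, against 3.09, 2.04 and 3.32 CPM in DMSO 1, 2 and 3. COL4A4 had 1.05, 0.269 and 0.195 CPM in TPA 1, 2 and 3, against 1.51, 0.701 and 0.943 CPM in DMSO 1, 2 and 3. Here TPA 1 was high, above DMSO 2, while TPA 2 and TPA 3 were below all DMSO libraries. The log2 fold change of COL4A3 was -1.34 ± 0.62 (adjusted p = 0.256, edgeR) and -1.63 ± 0.44 with the block (adjusted p = 0.0389). Without both libraries numbered 1 it was -2.18. COL4A4 had -1.07 ± 0.66 (adjusted p = 0.384) and -1.28 ± 0.47 with the block (adjusted p = 0.0943), and -1.66 without both libraries numbered 1.

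COL4A5, the X-linked Alport syndrome gene, and COL4A6 encode chains of the basement membranes of skin and smooth muscle. COL4A5 had 25.9, 35.7 and 35.8 CPM in TPA 1, 2 and 3, against 37.7, 77.2 and 82.6 CPM in DMSO 1, 2 and 3. It was the one type IV gene whose groups did not overlap. COL4A6 had 10.9, 22.1 and 20.8 CPM in TPA 1, 2 and 3, against 18.0, 30.0 and 29.3 CPM in DMSO 1, 2 and 3, and only DMSO 1 lay within the TPA range. The log2 fold change of COL4A5 was -1.02 ± 0.34 (adjusted p = 0.138, edgeR), -0.96 ± 0.25 with the block (adjusted p = 0.035) and -1.01 without both libraries numbered 1. COL4A6 had -0.53 ± 0.35 (adjusted p = 0.407, edgeR) and -0.56 ± 0.23 with the block (adjusted p = 0.124). Its value was -0.16 without TPA 1 alone and -0.32 without both libraries numbered 1.

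**Figure D2:**
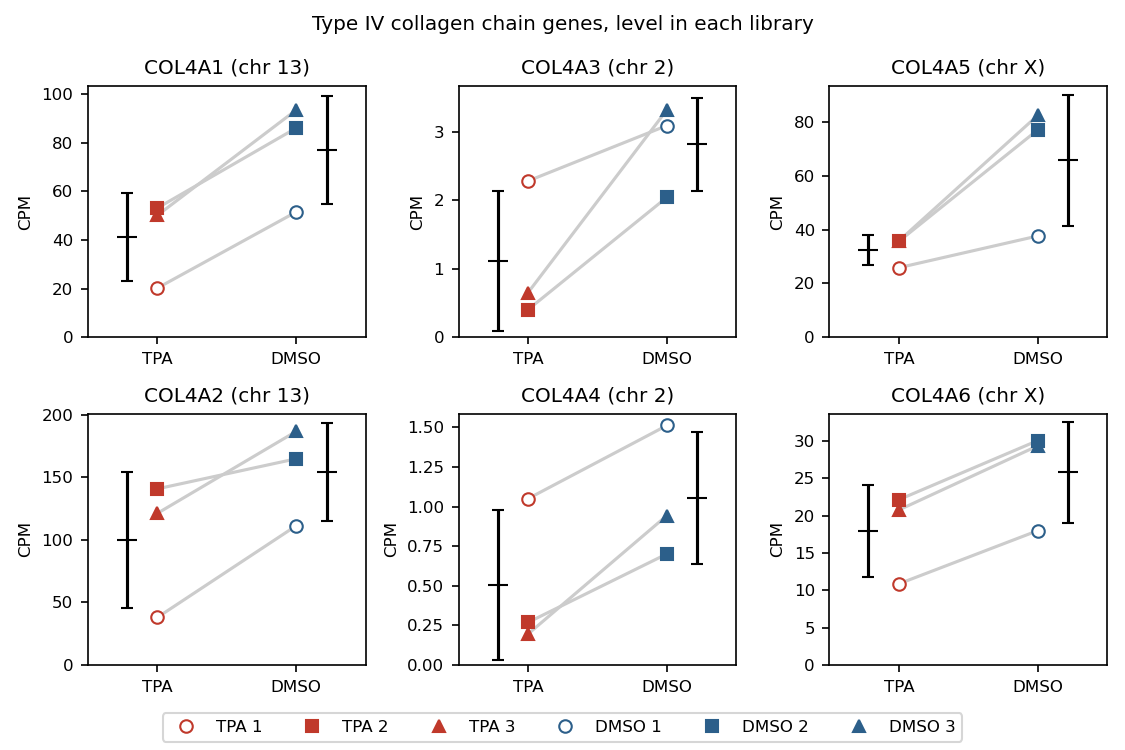
CPM of the 6 type IV genes in each library, TPA left and DMSO right, with lines joining libraries of the same number and bars for the mean and SD of 3 libraries; each column of panels is 1 gene pair. All 18 lines slope up from TPA to DMSO, and the libraries numbered 1 (open circles) are the lowest of their group for COL4A1, COL4A2, COL4A5 and COL4A6.

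The balance within the pairs was taken per length of transcript. The ratio of COL4A1 to COL4A2 in CPM per kb of transcript was 0.522, 0.371 and 0.406 in TPA 1, 2 and 3, against 0.455, 0.513 and 0.492 in DMSO 1, 2 and 3. The ratio of COL4A3 to COL4A4 was 2.69, 1.86 and 4.12 in TPA, against 2.53, 3.60 and 4.35 in DMSO. The ratio of COL4A5 to COL4A6 was 2.48, 1.68 and 1.80 in TPA, against 2.18, 2.68 and 2.93 in DMSO. All 3 ratios overlapped between the groups, with COL4A2 the more abundant of its pair, and COL4A3 and COL4A5 the more abundant of theirs, in every library.

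The other network-forming genes did not move as 1 group. COL8A1 and COL8A2 encode the short chains of type VIII collagen, known from the endothelial and corneal matrix. COL8A1 had 0.507, 0.235 and 0.358 CPM in TPA 1, 2 and 3, against 1.12, 0.975 and 1.27 CPM in DMSO 1, 2 and 3, with no overlap. Its log2 fold change was -1.61 ± 0.40 (adjusted p = 0.0796, edgeR), -1.64 ± 0.44 with the block (adjusted p = 0.0398) and -1.75 without both libraries numbered 1. COL8A2 had 1.88, 1.07 and 1.37 CPM in TPA 1, 2 and 3, against 1.54, 0.944 and 0.911 CPM in DMSO 1, 2 and 3, and its groups overlapped (log2 0.35 ± 0.37, adjusted p = 0.617). The ratio of COL8A1 to COL8A2 in CPM per kb was 0.220, 0.179 and 0.214 in TPA, against 0.592, 0.845 and 1.14 in DMSO. Those ratios did not overlap.

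COL10A1 encodes type X collagen, the product of hypertrophic cartilage. It had 5.25, 1.34 and 1.27 CPM in TPA 1, 2 and 3, against 5.09, 4.48 and 6.05 CPM in DMSO 1, 2 and 3, so TPA 1 lay among the DMSO libraries (log2 -0.99 ± 0.56, adjusted p = 0.344, edgeR; without TPA 1 alone -1.88). The gene lies wholly within NT5DC1 on the opposite strand. NT5DC1 had 37.5, 25.1 and 25.3 CPM in TPA 1, 2 and 3, against 36.1, 34.6 and 32.8 CPM in DMSO 1, 2 and 3. No source used here states whether the counting used strand, so reads where these genes overlap cannot be told apart. The same holds for COL4A1 with COL4A2. COL4A3 is overlapped on the opposite strand over 93741 bases of the gene body by AC097662.1, an antisense gene whose symbol was not among those counted.

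COL7A1 (chr3:48564073-48595267, minus strand) encodes the anchoring fibril protein, whose loss causes a blistering skin disease. It had 14.0, 65.7 and 68.2 CPM in TPA 1, 2 and 3, against 55.0, 147 and 143 CPM in DMSO 1, 2 and 3. DMSO 1 lay among the TPA libraries, and each TPA library was below the DMSO library of its number. The log2 fold change was -1.22 ± 0.62 (adjusted p = 0.294, edgeR), -1.40 ± 0.27 with the block (adjusted p = 0.0116) and -0.96 without both libraries numbered 1, and -0.67 without TPA 1 alone. Its RefSeq promoter window is printed because it had, with COL6A1, the lowest adjusted p of the members in the blocked fit, and the capitals mark its 3 GC boxes.
COL7A1 (chr3:48595280-48595579, minus strand): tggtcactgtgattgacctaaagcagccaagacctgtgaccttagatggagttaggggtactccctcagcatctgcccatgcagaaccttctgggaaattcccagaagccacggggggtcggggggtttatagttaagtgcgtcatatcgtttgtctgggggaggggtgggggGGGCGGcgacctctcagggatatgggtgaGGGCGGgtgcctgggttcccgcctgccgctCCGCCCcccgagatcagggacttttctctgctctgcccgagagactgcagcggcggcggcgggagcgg

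Type VI collagen forms beaded filaments next to basement membranes, and its usual molecule holds the chains of COL6A1, COL6A2 and COL6A3. COL6A1 had 1.05, 3.46 and 3.29 CPM in TPA 1, 2 and 3, against 3.29, 8.32 and 8.49 CPM in DMSO 1, 2 and 3. DMSO 1 and TPA 3 were equal to 3 digits, and the other DMSO libraries were above all TPA libraries. Its log2 fold change was -1.36 ± 0.54 (adjusted p = 0.195, edgeR), -1.41 ± 0.27 with the block (adjusted p = 0.0116) and -1.16 without both libraries numbered 1, and -0.88 without TPA 1 alone. The partner genes had almost no reads. COL6A2 had 7 counts over the TPA libraries and 5 over the DMSO libraries, and COL6A3 had 9 and 4, and neither was tested. COL6A6, which encodes a later described type VI chain, had 1.48, 0.806 and 0.782 CPM in TPA 1, 2 and 3, against 2.20, 2.74 and 2.60 CPM in DMSO 1, 2 and 3. Its groups did not overlap, and its log2 fold change was -1.30 ± 0.35 (adjusted p = 0.0956, edgeR), -1.34 ± 0.37 with the block (adjusted p = 0.0425) and -1.59 without both libraries numbered 1. Its neighbour COL6A5 had 1 count over the TPA libraries and 1 over the DMSO libraries.

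COL13A1 (chr10:69801867-69964275, plus strand) encodes a collagen that spans the cell membrane and is known from cell adhesion sites and the neuromuscular junction. It was the member called higher with the block. It had 8.43, 15.1 and 14.2 CPM in TPA 1, 2 and 3, against 7.98, 3.90 and 3.97 CPM in DMSO 1, 2 and 3. The groups did not overlap, but TPA 1 and DMSO 1 were nearly level, with a log2 ratio of 0.08 in that pair against 1.92 and 1.81 in the pairs numbered 2 and 3. The log2 fold change was 1.25 ± 0.38 (adjusted p = 0.118, edgeR), 1.30 ± 0.36 with the block (adjusted p = 0.0443) and 2.05 without both libraries numbered 1. COL23A1, another membrane-spanning collagen, had 0.253 to 0.537 CPM in TPA and 0.0650 to 0.493 CPM in DMSO, and its groups overlapped. COL25A1, the third of this kind among the members, had no count.

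COL18A1 encodes a basement membrane proteoglycan whose end fragment is endostatin, an inhibitor of vessel growth. It had 20.5, 54.4 and 57.3 CPM in TPA 1, 2 and 3, against 43.2, 57.7 and 66.0 CPM in DMSO 1, 2 and 3. Only TPA 1 was below the DMSO range, and the log2 fold change of -0.34 ± 0.40 (adjusted p = 0.649, edgeR) was 0.12 without that library. COL18A1 overlaps SLC19A1 on the opposite strand over 20149 bases of the gene body, and reads there cannot be told apart either. COL28A1, a collagen of peripheral nerve, had 3.95, 3.63 and 3.26 CPM in TPA 1, 2 and 3, against 3.55, 6.21 and 8.10 CPM in DMSO 1, 2 and 3, and its groups overlapped (log2 -0.72 ± 0.34, adjusted p = 0.266).

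Among the 11 fibrillar genes, 6 were tested and none passed in either fit. COL27A1, a fibrillar collagen known from cartilage, was the highest of them, with 20.5, 23.9 and 24.5 CPM in TPA 1, 2 and 3, against 12.7, 17.6 and 17.6 CPM in DMSO 1, 2 and 3. Its groups did not overlap, and its log2 fold change was 0.52 ± 0.23 (adjusted p = 0.241, edgeR; 0.134 with the block). With a correction for GC content it was 0.20, and 0.17 with the block added. COL1A1 encodes the main chain of type I collagen and had 2.90, 10.4 and 9.32 CPM in TPA 1, 2 and 3, against 5.09, 10.8 and 12.1 CPM in DMSO 1, 2 and 3. Its groups overlapped (log2 -0.31 ± 0.52, adjusted p = 0.750). The log2 fold change was 0.19 without TPA 1 alone, -0.065 without both libraries numbered 1 and -0.41 with the block. The usual partner chain gene COL1A2 had 4 counts over the TPA libraries and 1 over the DMSO libraries.

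COL5A3 had 1.38, 6.14 and 7.43 CPM in TPA 1, 2 and 3, against 1.94, 2.50 and 2.93 CPM in DMSO 1, 2 and 3. TPA 1 was the lowest library and the other TPA libraries were the highest (log2 1.02 ± 0.57, adjusted p = 0.337, edgeR). Without both libraries numbered 1 the log2 fold change was 1.48, and with GC correction and block it was 0.43. The other type V genes were low: COL5A2 had 0.471 to 0.912 CPM in TPA and 0.609 to 1.02 CPM in DMSO, and COL5A1 had 12 counts over the TPA libraries and 5 over the DMSO libraries. Type V chains are known to set the diameter of type I fibrils. COL11A1 had 0.615, 0.671 and 0.358 CPM in TPA 1, 2 and 3, against 0.821, 0.762 and 1.14 CPM in DMSO 1, 2 and 3. Its groups did not overlap, and its log2 fold change was -0.72 ± 0.39 (adjusted p = 0.325). COL11A2, its partner in the type XI collagen of cartilage, had 1.12, 2.15 and 2.38 CPM in TPA 1, 2 and 3, against 2.63, 2.83 and 2.37 CPM in DMSO 1, 2 and 3, with overlap (log2 -0.47 ± 0.35, adjusted p = 0.460; -0.10 without TPA 1). COL2A1, COL3A1 and COL24A1 had too few counts to be tested.

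Of the 10 FACIT genes 5 were tested, and COL12A1 had the highest mean CPM of the members, not corrected for length. COL12A1 encodes a fibril-associated collagen of dense connective tissue. It had 461, 171 and 202 CPM in TPA 1, 2 and 3, against 285, 278 and 228 CPM in DMSO 1, 2 and 3. TPA 1 was the highest and TPA 2 the lowest of the 6 libraries, and the log2 fold change was 0.07 ± 0.38 (adjusted p = 0.923, edgeR). The log2 ratio was 0.69 in the pair numbered 1, against -0.71 and -0.17 in those numbered 2 and 3, and without both libraries numbered 1 the log2 fold change was -0.29. COL9A3 encodes a chain of type IX collagen of cartilage, and had 21.2, 37.2 and 34.6 CPM in TPA 1, 2 and 3, against 16.4, 16.2 and 17.8 CPM in DMSO 1, 2 and 3. All TPA libraries were above all DMSO libraries, and the log2 fold change was 0.88 ± 0.27 (adjusted p = 0.117, edgeR; 0.0545 with the block), and 1.23 without both libraries numbered 1.

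The partners of COL9A3 did not share that pattern. COL9A2 had 0.905, 2.42 and 2.41 CPM in TPA 1, 2 and 3, against 1.28, 2.22 and 2.05 CPM in DMSO 1, 2 and 3 (log2 0.05 ± 0.44, adjusted p = 0.960, edgeR). COL9A1 had no count, like COL19A1, which lies beside it in the genome. COL20A1 had 23.9, 20.4 and 20.7 CPM in TPA 1, 2 and 3, against 23.7, 10.6 and 10.9 CPM in DMSO 1, 2 and 3, and DMSO 1 lay among the TPA libraries (log2 0.52 ± 0.35, adjusted p = 0.416; 1.01 without DMSO 1 and 1.09 without both libraries numbered 1). COL16A1, a collagen of skin and muscle matrix, had 1.85, 5.27 and 4.69 CPM in TPA 1, 2 and 3, against 3.88, 3.75 and 3.19 CPM in DMSO 1, 2 and 3, with TPA 1 the lowest library (log2 0.13 ± 0.40, adjusted p = 0.873).

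**Figure D3:**
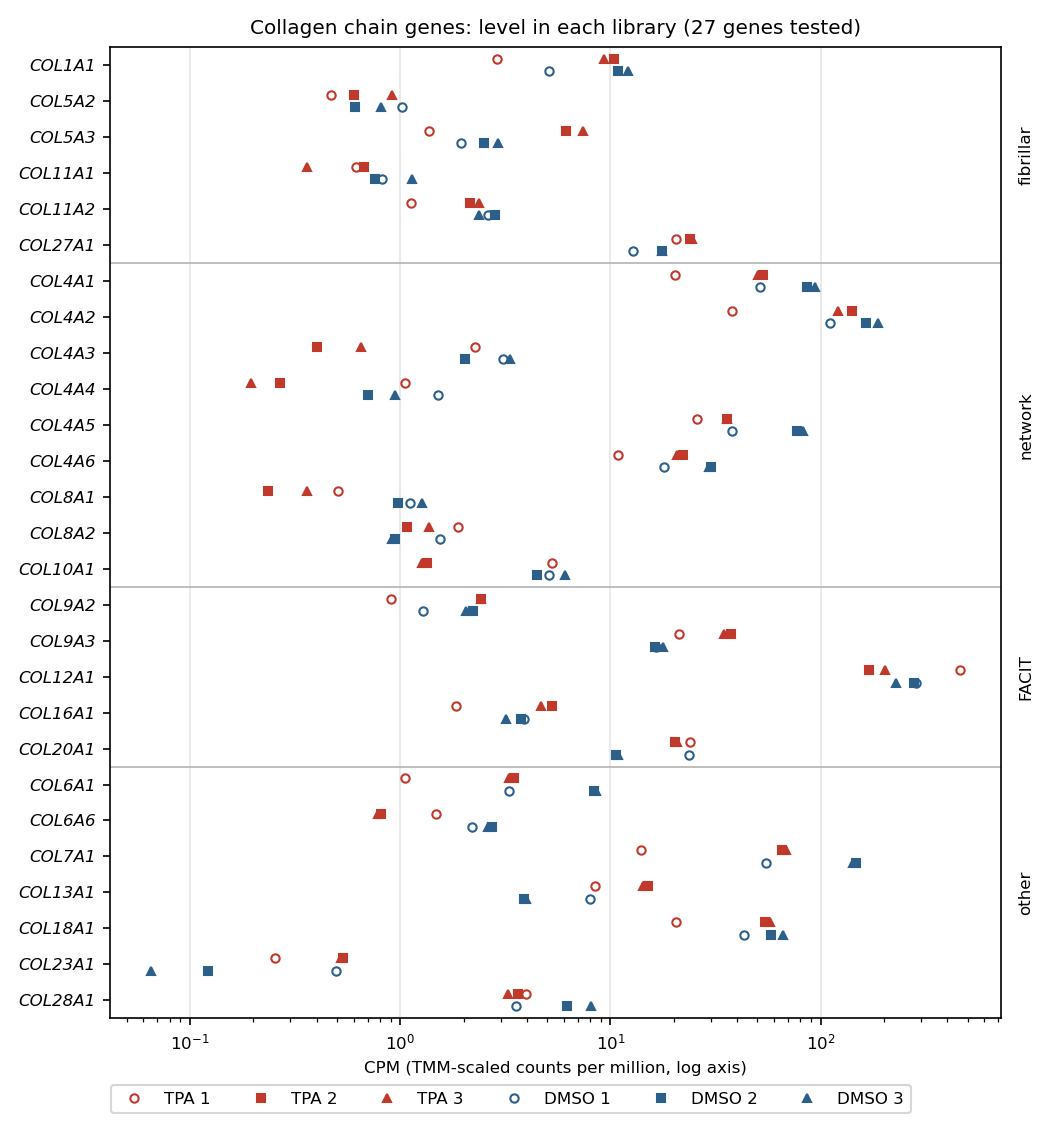
CPM on a log axis of the 27 tested collagen genes in each library, TPA above DMSO within each gene, with open circles for the libraries numbered 1. Levels span from 0.0650 CPM (COL23A1 in DMSO 3) to 461 CPM (COL12A1 in TPA 1).

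The 16 members that were not tested had between 0 and 50 counts over all 6 libraries. COL9A1, COL19A1 and COL25A1 had 0 counts in every library, which allows up to 0.0977 to 0.109 CPM in a TPA library and 0.0914 to 0.0986 CPM in a DMSO library (3 counts over the scaled library size, counting error only). COL15A1, a basement membrane proteoglycan gene related to COL18A1, was the highest of the 16 not tested with 3 against 3 libraries, with 8, 13 and 11 counts in TPA 1, 2 and 3, against 7, 6 and 5 counts in DMSO 1, 2 and 3. COL3A1, a fibril gene of fibroblasts, had 2 counts over the TPA libraries and 1 over the DMSO libraries. COL24A1 had 18 counts over the TPA libraries and 22 over the DMSO libraries, and COL2A1, the main cartilage fibril gene, had 9 and 20. COL14A1, COL21A1, COL22A1 and COL26A1 had 0 to 4 counts over the TPA libraries and 1 to 8 over the DMSO libraries.

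Levels of different genes were set side by side per kb of transcript, for the 6 highest members of each group. In TPA the order was COL12A1 with a mean of 23.7 CPM per kb, COL4A2 with 15.4, COL9A3 with 12.4, COL18A1 with 6.69, COL4A1 with 6.22 and COL7A1 with 5.32. In DMSO it was COL4A2 with 23.7, COL12A1 with 22.5, COL7A1 with 12.4, COL4A1 with 11.6, COL4A5 with 10.2 and COL18A1 with 8.45. COL4A5 had 5.01 CPM per kb in TPA, and COL9A3 had 6.72 in DMSO. The first place in TPA rested on TPA 1: COL12A1 had 39.3, 14.5 and 17.2 CPM per kb in TPA 1, 2 and 3, and COL4A2 had 5.85, 21.7 and 18.7. COL4A2 was therefore above COL12A1 in TPA 2, TPA 3, DMSO 2 and DMSO 3, and below it in both libraries numbered 1. The groups overlapped for COL12A1, COL4A2, COL7A1, COL4A1 and COL18A1 but not for COL9A3 and COL4A5. All 43 members together summed to 692, 680 and 690 CPM in TPA 1, 2 and 3, against 702, 941 and 936 CPM in DMSO 1, 2 and 3. Every TPA library was below every DMSO library in this sum, by a narrow margin against DMSO 1. Network-forming genes took 15.3%, 37.5% and 33.6% of these counts in TPA 1, 2 and 3, against 32.9%, 39.0% and 43.2% in DMSO 1, 2 and 3. FACIT genes took 73.5%, 34.7% and 38.4% in TPA, against 47.1%, 33.1% and 28.0% in DMSO. Both shares overlapped between the groups, with TPA 1 outside the range of the other 5 libraries.

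**Figure D4:**
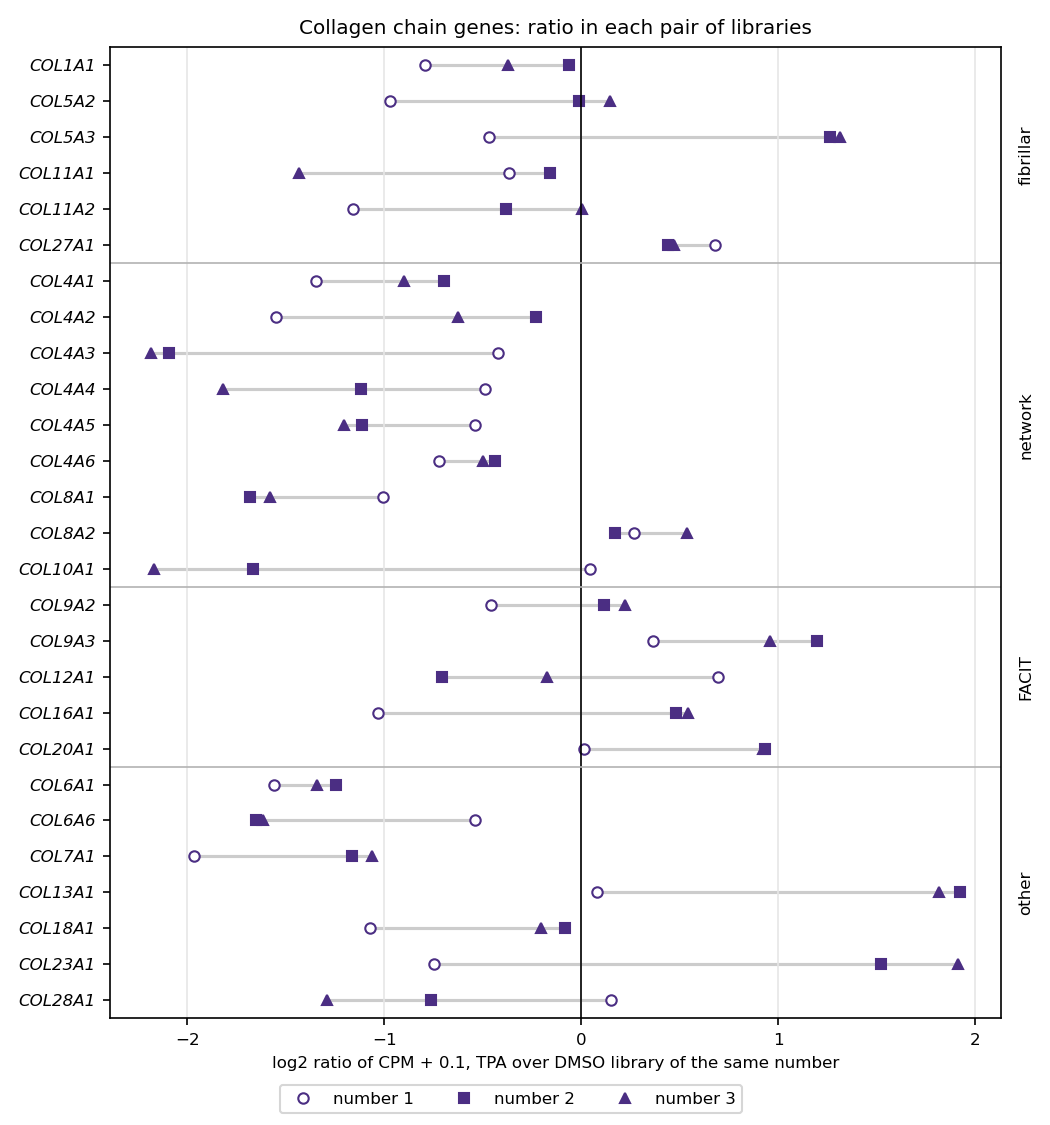
Log2 ratio of the TPA to the DMSO library of the same number for the 27 tested collagen genes, on CPM plus 0.1, with open circles for number 1. The 6 type IV genes, COL7A1, COL6A1 and COL6A6 lie left of 0 for all 3 numbers. In 9 members number 1 lies on the opposite side from number 2 or 3. These are COL10A1, COL28A1, COL23A1, COL9A2, COL11A2, COL5A2, COL12A1, COL16A1 and COL5A3.

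Genes that modify, fold, cut and cross-link collagen were taken as a list of 31, of which 25 were tested. With 3 against 3 libraries 0 passed in either direction (edgeR), with 2 lower (10.7% of all genes) and 5 higher (11.3%) at an unadjusted p under 0.05. DESeq2 called 1 lower (4.19% of all genes) and 5 higher (7.8%), and limma-voom 0 and 0. The block called 2 of the 25 lower, near the share of all genes (6.52%), and 0 higher (4.58%). Both are lysyl oxidase-like genes, whose products cross-link collagen. LOXL2, known to act on type IV collagen, had 27.1, 74.3 and 67.7 CPM in TPA 1, 2 and 3, against 79.4, 137 and 149 CPM in DMSO 1, 2 and 3, with no overlap (log2 -1.11 ± 0.42, adjusted p = 0.182; with the block -1.19 ± 0.25, adjusted p = 0.0161). Its log2 fold change was -0.67 without TPA 1 alone and -0.86 without both libraries numbered 1. LOXL4 had 5.76, 5.77 and 4.63 CPM in TPA 1, 2 and 3, against 8.35, 17.8 and 21.1 CPM in DMSO 1, 2 and 3, with no overlap (log2 -1.55 ± 0.37, adjusted p = 0.0738; with the block -1.46 ± 0.32, adjusted p = 0.0199; without both libraries numbered 1 -1.75).

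By mean CPM, not corrected for length, the 2 highest genes of that list were P4HB and COLGALT1. Per kb of transcript PPIB, a cyclophilin gene, was above COLGALT1 (164 against 73.8 CPM per kb over all libraries). P4HB, which encodes the protein disulphide isomerase that is also a subunit of prolyl 4-hydroxylase, had 547, 788 and 740 CPM in TPA 1, 2 and 3, against 461, 380 and 409 CPM in DMSO 1, 2 and 3. All TPA libraries were higher, and the log2 fold change was 0.73 ± 0.21 (adjusted p = 0.106, edgeR; 0.0819 with the block). COLGALT1, a collagen galactosyltransferase gene, had 145, 411 and 370 CPM in TPA 1, 2 and 3, against 202, 247 and 267 CPM in DMSO 1, 2 and 3, with TPA 1 the lowest library (log2 0.37 ± 0.38, adjusted p = 0.595). With GC correction and block the log2 fold change was 0.34 for P4HB and -0.13 for COLGALT1. The median log2 fold change over the 25 was 0.19, beside -0.11 over all genes tested. It was 0.048 with the block, beside -0.17, and -0.087 with GC correction and block, beside -0.15.

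Of 13 collagen receptor genes, 12 were tested and 0 passed with 3 against 3 libraries (edgeR), with 2 lower (10.7% of all genes) and 1 higher (11.3%) at an unadjusted p under 0.05. DESeq2 called 1 lower (4.19% of all genes) and 1 higher (7.8%), and limma-voom 0 and 0. The block called 1 of the 12 lower (6.52% of all genes) and 1 higher (4.58%), counts too small to set apart from those shares. ITGA11, an integrin chain for fibrillar collagen, had 1.77, 1.48 and 0.977 CPM in TPA 1, 2 and 3, against 3.15, 3.23 and 3.15 CPM in DMSO 1, 2 and 3, with no overlap (log2 -1.17 ± 0.31, adjusted p = 0.0897; with the block -1.21 ± 0.32, adjusted p = 0.039; without both libraries numbered 1 -1.23). OSCAR, an immunoglobulin-like receptor known from osteoclasts, had 1.16, 3.66 and 2.44 CPM in TPA 1, 2 and 3, against 0.756, 0.701 and 0.976 CPM in DMSO 1, 2 and 3, with no overlap (log2 1.57 ± 0.46, adjusted p = 0.107; with the block 1.46 ± 0.41, adjusted p = 0.0439; without both libraries numbered 1 it was 2.01). The highest by mean CPM were DDR1, a collagen-activated receptor tyrosine kinase gene, and ITGB1, the shared beta chain of the collagen-binding integrins. DDR1 had 784, 1902 and 1765 CPM in TPA 1, 2 and 3, against 622, 926 and 963 CPM in DMSO 1, 2 and 3 (log2 0.83 ± 0.35, adjusted p = 0.227), and TPA 1 lay within the DMSO range. ITGB1 had 373, 206 and 214 CPM in TPA 1, 2 and 3, against 436, 453 and 365 CPM in DMSO 1, 2 and 3. Its log2 fold change was -0.66 ± 0.28 (adjusted p = 0.217, edgeR), and TPA 1 again lay within the DMSO range. With GC correction and block the log2 fold change was 0.39 for DDR1 and -0.15 for ITGB1.

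The collagen transcripts were GC-rich, with a median GC content of 61.1% for the 27 tested against 48.5% over all genes tested. The type IV genes had a median of 52.7%. Across 11796 expressed genes, the log2 ratio of the TPA to the DMSO library had a Spearman correlation with GC content of -0.12 in the pair numbered 1, 0.69 in that numbered 2 and 0.63 in that numbered 3, given as a description over genes of the same libraries. GC-rich genes were therefore higher in TPA relative to other genes in pairs 2 and 3. GC-rich members went both ways. COL7A1 (64.8% GC) and COL6A1 (63.5% GC) were lower in all 3 pairs, and COL9A3 (67.4% GC) and COL27A1 (61.3% GC) were higher in all 3. The cause of these differences was not tested. In a fit with the block and an offset for the GC trend of every library, 10 members were called lower (10.8% of all genes) and 1 higher (9.36% of all genes). COL4A1 (-1.36), COL4A2 (-1.15), COL4A5 (-1.24), COL4A6 (-0.93), COL6A1 (-1.78), COL6A6 (-1.15), COL7A1 (-1.73), COL8A1 (-1.65), COL18A1 (-0.76) and COL1A1 (-0.78) were those called lower, in log2 fold change. COL9A3 (0.54) was called higher, COL13A1 (0.91, adjusted p = 0.0688, edgeR) was not, and COL4A3 (-1.79, adjusted p = 0.0547) was not. Of the members called lower, COL4A2, COL4A6, COL18A1 and COL1A1 were not called with the block alone. Without both libraries numbered 1, and with no GC offset, their log2 fold changes were -0.27, -0.32, 0.0068 and -0.065.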

How the data were processed

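RNA of 3 TPA and 3 DMSO samples of KYSE150 cells was sequenced. The authors deposited raw read counts by gene symbol, made with HISAT2 2.1.0 and HTSeq 0.12.4 on builds named hg38 and GRCh38, per the submitters' processing notes. The annotation and strand setting of the counting were not given in the sources used here. The table had 0 value columns outside the labels and 0 rows naming no gene, and the control columns were taken as the DMSO samples by their number.

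CPM are counts over the library size scaled by TMM. TPA was tested against DMSO with edgeR 4.0.16 (R 4.3.3; quasi-likelihood, TMM, filterByExpr, group only, Benjamini-Hochberg at 0.05) on all 21825 genes that passed the filter, and only collagen and related genes are printed. SE is the log2 fold change over the square root of F. Zero-count limits cover counting error only, whereas the SE includes the spread between these libraries. Deviations from the group means had correlations of 0.547, 0.345 and 0.369 between TPA and DMSO libraries numbered 1, 2 and 3. On that ground, not a stated shared culture, the numbers were used as pairs. TPA 3 with DMSO 2 (0.356) and TPA 2 with DMSO 3 (0.374) were as high, so this does not tell numbers 2 and 3 apart.

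Transcript length and GC content are those of the longest protein-coding GENCODE 29 transcript of the basic set. Of 60591 symbols 37725 matched by current symbol, 18800 by the symbol of that release and 4066 by none or more than 1. The GC correction took as offset a robust spline (5 degrees of freedom) fitted per library, on 21024 tested genes with a GC value. Alternatives were other scalings, filters, DESeq2 1.42.0, limma-voom (limma 3.58.1), the block, left-out libraries, the GC correction and a threshold of 0.01. The edgeR fits with and without the block were tested on simulated counts that held no effect of library number and no GC trend. The GC correction, DESeq2 and limma-voom were not tested in this way. Members, lists and the rule for named genes (mean of at least 1 CPM, a call in either fit, or a partner or neighbour of such a gene, and for other lists the called and the 2 most abundant genes) were chosen with earlier results of these data known.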

Additional observations from a re-analysis of the deposited data

How the results depend on the processing

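With the replicate block, which uses the pairing by library number, the calls were 1 higher and 7 lower for collagen genes, 1000 and 1423 for all genes, 0 and 2 for processing genes, and 1 and 1 for receptor genes. Without it they were 0 and 0, 188 and 86, 0 and 0, and 0 and 0. Both fits tested 27 collagen genes, 21825 genes in all, 25 processing genes and 12 receptor genes. Of all genes, 4.58% were called higher and 6.52% lower with the block, and 0.861% and 0.394% without it. DESeq2 gave 2 and 2, 1702 and 915 (7.8% and 4.19% of all genes), 5 and 1, and 1 and 1 in that order. Without both libraries numbered 1 the counts were 8 and 13, 7216 and 7475 (32.2% and 33.3% of all genes), 13 and 6, and 4 and 5. That fit tested 28 collagen genes, 22421 genes in all, 26 processing genes and 12 receptor genes. The GC correction gave 0 and 5 (COL4A1, COL4A5, COL4A6, COL6A1 and COL8A1), 701 and 653, and 1 and 3 without the block, with receptor genes at 0 and 0. With the block it gave 1 and 10, 1968 and 2278 (9.36% and 10.8% of all genes), 5 and 4, and 1 and 1. Both GC fits tested 27 collagen genes, 21024 genes in all, 25 processing genes and 12 receptor genes. Over all genes, no filter gave 429 higher and 202 lower, library size only 126 and 219, limma-voom 247 and 130, and a threshold of 0.01 gave 0 and 0. Other scalings, other filters, limma-voom and the threshold of 0.01 left collagen calls at 0 in both directions. Leaving out 1 library gave 0 to 5 collagen genes higher and 0 to 6 lower, 0 to 5577 and 0 to 6297 genes of all, 0 to 11 and 0 to 5 processing genes, and 0 to 3 and 0 to 5 receptor genes. The highest of these counts came without TPA 1, where 24.6% and 27.8% of all genes were called. The cause of these shifts was not tested.

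Over all genes tested, the log2 fold change had a median of -0.11 with TMM and with upper-quartile factors, -0.01 with RLE factors and -0.36 with library size only. The 6 type IV genes, COL7A1, COL6A1, COL6A6 and COL8A1 were below 0 and COL13A1 above 0 under all 4 scalings. Of 455 log2 fold changes of single collagen genes under alternatives, 372 kept their sign and side of the threshold, 57 passed it and 26 turned their sign. COL12A1 turned to -0.16 with library size only, -0.067 with limma-voom, -0.065 with the block, -0.029 with GC correction and block and -0.29 without both libraries numbered 1, and ran from -0.39 to 0.34 with 1 library left out. COL16A1 turned to -0.14 with library size only, -0.34 with GC correction and -0.33 with the block added, and ran from -0.12 to 0.58 with 1 library left out. COL9A2 turned to -0.22 with library size only, -0.039 with the stricter filter, -0.040 with limma-voom, -0.027 with the block and -0.37 with GC correction, alone or with the block, and ran from -0.16 to 0.49 with 1 library left out. Without both libraries numbered 1, COL18A1 was at 0.0068 and COL5A2 at 0.25. With 1 library left out COL18A1 ran from -0.55 to 0.12, COL1A1 from -0.60 to 0.19 and COL5A2 from -0.58 to 0.014, each highest without TPA 1. COL8A1, COL4A4 and COL23A1 rest on under 10 counts in at least 1 library, and with 0 counts a level up to the zero-count limit was not detectable.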
